A study of Mus musculus with 8 samples.

Results

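The 34 genes described here encode enzymes of the lysosome and 4 proteins of its membrane. They were listed by symbol, with no threshold on a measured value, and each symbol matched 1 of the 55536 entries with a gene identifier in the table of counts. By role they are 13 proteases, 11 enzymes that break down carbohydrate chains, 6 lipid hydrolases and activator proteins, and 4 membrane proteins. Liver RNA came from lean wild-type C57BL/6 mice aged 2 months. All 8 animals had received 0.1 OD of an adenovirus 1 week earlier and were fasted overnight before collection. In the control group (n = 4) the virus carried a short hairpin RNA against lacZ, and in the knockdown group (n = 4) a hairpin against Eif4ebp3. No group without virus was analysed here, and neither the promoter of the hairpin nor the cells that took up the virus could be read from the labels. The comparison addressed which liver transcripts differ when Eif4ebp3, an inhibitor of the cap-binding factor eIF4E, is depleted.

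Lysosomes are acidic organelles in which proteins, glycans, glycosaminoglycans and lipids are broken down to reusable units. Their soluble enzymes are made in the endoplasmic reticulum, tagged with mannose 6-phosphate and delivered by receptors, while heavily glycosylated membrane proteins such as LAMP1 and LAMP2 line the organelle. In liver the enzymes are present both in hepatocytes, which rely on autophagy during fasting, and in macrophages, which are rich in lysosomes. Many lysosomal genes carry a CACGTG-centred element in the promoter, called CLEAR, which is bound by TFEB and related factors.

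Promoter windows from RefSeq (GRCm38.p6, 250 bases before to 50 after a start site) were found for 30 of the 34 genes, 33 windows in all. Asah1, Ctsb, Ctse and Ctsh had no entry. The palindrome CACGTG, which reads the same on both strands, was present in 11 of the 33 windows (33.3%), against 7.15% of 32851 windows of the same length over all genes. The longer form TCACGTG, which contains the palindrome and was searched on both strands, was present in 9 windows (27.3%, against 3.77% of all windows). The full CLEAR palindrome, CACGTG preceded by GT and followed by AC, was present in 0 of the 33 windows and in 0.326% of all windows. The GC box GGGCGG, searched on both strands, was present in 57.6% of the 33 windows and in 35.7% of all windows. Windows with CACGTG belonged to genes that were higher in the knockdown samples (4 of 16 with a window), to genes that were lower (4 of 7) and to genes that did not pass the test (3 of 7). The following stretches are shown because they hold the palindrome outside annotated exons and belong to genes with each of these outcomes, with CACGTG in capitals. They are Gla (chrX:134601133-134601252, minus strand) and Glb1 (chr9:114400956-114401075, plus strand), which were higher, Gaa (chr11:119267767-119267886, plus strand) and Mcoln1 (chr8:3500337-3500456, plus strand), which were lower, and Lamp1 (chr8:13159041-13159160, plus strand), which did not pass.
Gla: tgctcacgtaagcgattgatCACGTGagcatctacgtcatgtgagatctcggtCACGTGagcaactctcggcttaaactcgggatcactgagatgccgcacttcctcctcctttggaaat
Glb1: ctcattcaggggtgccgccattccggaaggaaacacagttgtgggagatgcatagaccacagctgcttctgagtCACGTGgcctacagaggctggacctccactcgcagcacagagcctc
Gaa: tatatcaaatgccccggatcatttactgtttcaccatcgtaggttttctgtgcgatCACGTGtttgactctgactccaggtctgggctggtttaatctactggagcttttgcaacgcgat
Mcoln1: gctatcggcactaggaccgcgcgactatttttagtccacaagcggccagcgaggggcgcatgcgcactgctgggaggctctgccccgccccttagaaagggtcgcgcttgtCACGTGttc
Lamp1: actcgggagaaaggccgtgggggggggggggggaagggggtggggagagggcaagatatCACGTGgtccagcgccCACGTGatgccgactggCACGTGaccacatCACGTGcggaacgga
A match of letters is a description of the window and not evidence of binding.

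The target of the hairpin, Eif4ebp3, held 289, 215, 204 and 49.3 normalised counts (CPM, scaled by TMM, a trimmed mean of ratios between samples) in control replicates 1 to 4, and 9.62, 13.9, 37.2 and 19.5 CPM in knockdown replicates 1 to 4. Eif4ebp3 thus fell by 3.24 ± 0.53 (log2, SE, adjusted p = 0.000379, edgeR). The groups did not overlap, although control replicate 4 lay nearest the knockdown samples. Total counts per sample ranged from 24371461 to 32389444. The sample codes carry a letter, D for replicate 4 of each group and C for the others, and the labels do not say what it means.

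Of the 34 genes, 27 passed the test, with 57.2% of all genes tested passing in either direction: 19 rose and 8 fell in the knockdown samples by edgeR's quasi-likelihood test with Benjamini-Hochberg adjustment over 15375 genes, with a threshold of 0.05, and 7 did not pass. The share that rose, 55.9%, stood beside 29.5% of all genes tested, and the share that fell, 23.5%, beside 27.8%. All 34 passed the filter on low counts. The median log2 fold change was 0.30, against -0.0032 over all genes tested. Among the enzymes and activators of the lumen 18 rose and 6 fell, and of the 4 membrane proteins 1 rose and 2 fell. The difference between these sets was not tested. The sum over the 34 genes was 6234, 6471, 6243 and 6281 CPM across controls and 8184, 7826, 7646 and 7440 CPM after knockdown. Every knockdown sample was therefore above every control in this sum. A few genes of high level weigh most in it, so it does not describe the typical member. Mean CPM rose in Psap (855 to 1590), Ctsb (585 to 1086) and Ctsd (456 to 807), and fell in Ctsl (899 to 508) and Lamp2 (748 to 406).

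The calls depended on the scaling between samples. Without TMM factors, that is with scaling to the total count, the median of all genes moved from -0.0032 to 0.56 on the log2 scale, so changes are given relative to the median gene. Under that scaling 28 of the 34 rose (63.9% of all genes) and 3 fell (7.73% of all genes), a split of 90.3% against 70.4% of the calls in the higher direction, while over all genes the split was 89.2% against 51.5%. The groups of 4 did not overlap for 26 of the 34 genes (76.5%), against 52.1% of all genes tested. Counts in the smaller lists below have the same base under TMM: 29.5% of all genes rose, 27.8% fell and 52.1% did not overlap. With a minimum fold of 1.5 built into the test, 10 rose (15.6% of all genes) and 2 fell (8.6% of all genes). Among the called genes, 6 rose at least 2-fold (15.4% of all genes) and 0 fell as far (7.04% of all genes). With only the C-coded samples, 18 rose and 8 fell, and those coded D, 1 in each group, gave no separate value. Among the 27 genes called, control replicate 4 was the control nearest the knockdown samples in 19, and without it the counts were 19 and 8.

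**Figure D1:**
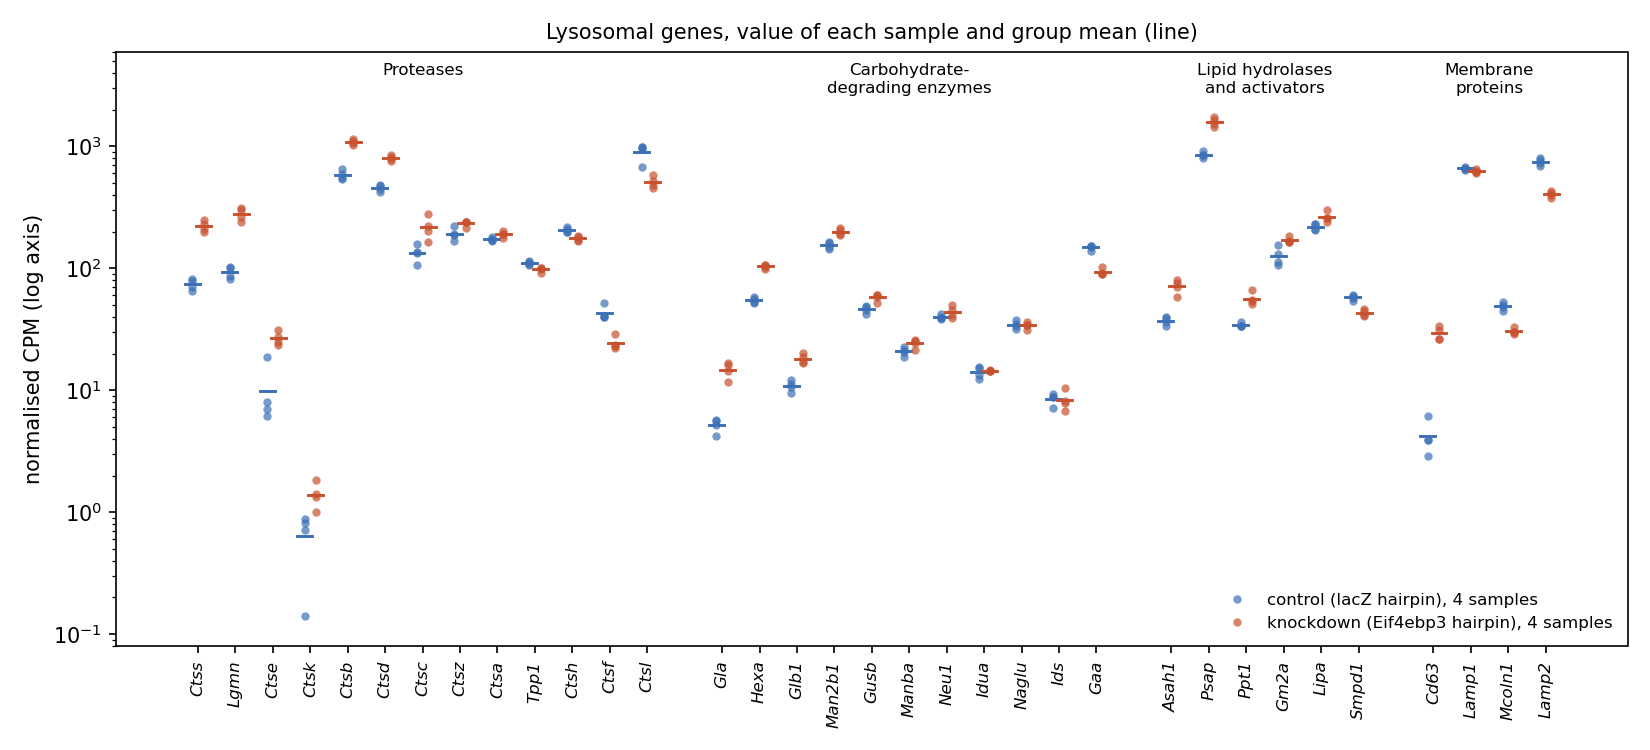
Normalised CPM (log axis) of each of the 34 lysosomal genes, ordered by role and by fold change, with 4 control samples in blue and 4 knockdown samples in red. Points are samples and lines are group means; the groups are apart for 26 genes, and Cd63, Ctss, Lgmn and Gla show the widest separation upward.

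**Figure D2:**
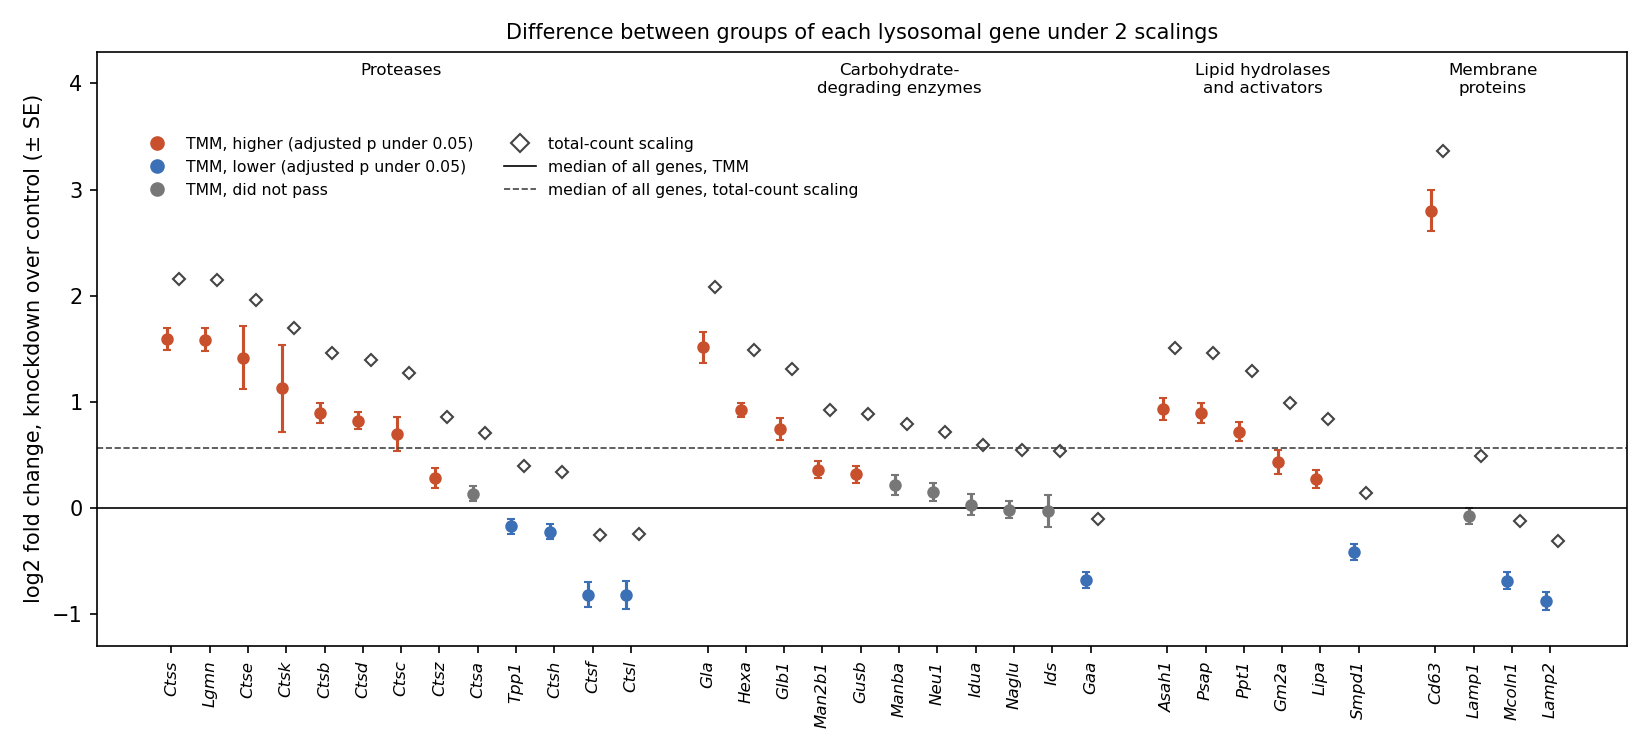
Log2 fold change of knockdown over control for each gene, filled circles with SE under TMM scaling and open diamonds under total-count scaling. The dashed line at 0.56 is the median of all genes under total-count scaling, and the diamonds lie above the circles for every gene shown.

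Markers of liver cell types also differed between the groups, in a direction that depended on the cell type. Of 19 measured macrophage markers, 17 rose and 0 fell, and their summed level was 723 to 954 CPM in the controls and 1866 to 2174 CPM in the knockdown samples. The defining markers Adgre1, Cd68 and Csf1r held 33.4, 16.0 and 110 CPM under control virus and 88.9, 50.1 and 254 CPM under knockdown. Of 10 hepatocyte markers 8 fell, with sums of 71086 to 93908 against 62729 to 80756 CPM, and of 9 stellate cell markers 7 rose (180 to 223 against 472 to 814 CPM). T and NK cell markers rose in 10 of 12 cases and fell in 1 (16.4 to 30.8 against 47.0 to 64.8 CPM), and of 5 dendritic cell markers 4 rose and 1 fell (16.1 to 19.5 against 29.4 to 54.4 CPM). Of 8 endothelial markers 1 rose and 2 fell, and 0 of 3 measured B cell markers passed the test (edgeR, 0 also at an unadjusted p under 0.05). Of the other lists, 1 of 3 measured neutrophil markers and 3 of 5 cholangiocyte markers rose and 0 fell. Under total-count scaling 18 macrophage markers rose, 2 hepatocyte markers rose and 5 fell, 3 endothelial markers rose and 0 fell, and 2 B cell markers rose. The part of these cells in the values below was not tested. In RNA of whole liver, a change in the number of cells of a type and a change of RNA per cell cannot be told apart.

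Proteases of the lysosome degrade proteins and, for several cathepsins, also trim antigens for presentation. Of the 13, 8 rose (61.5%, against 29.5% of all genes tested) and 4 fell (30.8%, against 27.8%), and 1 did not pass. The largest differences were in Ctss and Lgmn. Ctss, which encodes cathepsin S, a cysteine protease of antigen-presenting cells that cuts the invariant chain of MHC class II, held 70.3, 81.3, 65.0 and 79.0 CPM in controls, against 251, 229, 198 and 212 CPM after knockdown. All knockdown samples lay far above the controls. Ctss (chromosome 3, 95526786 to 95556403 of mm10) thus rose 3.01-fold (log2 1.59 ± 0.10, SE, adjusted p = 8.48e-07 with edgeR). Lgmn, which encodes legumain, an asparaginyl endopeptidase that activates other cathepsins, rose by 1.58 ± 0.11 (log2, SE), from 82.2, 101, 87.1 and 103 CPM to 311, 303, 241 and 264 CPM (adjusted p = 1.26e-06, edgeR). Knockdown replicates 1 and 2 were the highest for both genes. They were also the highest for the sum of all 34 genes. The same held for the summed markers of macrophages, T and NK cells, dendritic cells and stellate cells. It did not hold for those of hepatocytes, endothelial cells, B cells, neutrophils and cholangiocytes. Knockdown replicates 1 and 2 also held the least Eif4ebp3 (9.62 and 13.9 CPM, against 37.2 and 19.5 CPM in replicates 3 and 4). The order of the knockdown samples was not tested.

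The aspartic protease gene Ctsd and the cysteine protease gene Ctsb, both broadly expressed, rose by similar amounts. Ctsd held 422, 471, 449 and 480 CPM across controls and 851, 826, 794 and 756 CPM after knockdown, a rise of 1.77-fold (adjusted p = 1.21e-05, edgeR). Ctsb went from 540, 596, 546 and 659 CPM to 1152, 1097, 1071 and 1023 CPM, 1.86-fold (adjusted p = 1.65e-05, edgeR). Neither gene's groups overlapped. Exons of Ctsb share 774 bases, 12.8% of their length, with the oppositely oriented gene Fdft1, so Ctsb counts are uncertain if reads were not assigned by strand. Fdft1 held at most 2208 counts in a sample. Ctsb held 10610 to 14429 counts in controls and 31171 to 39906 after knockdown. Ctsd shares 34.4% of its exon bases with the entry Gm49369 on the same strand, which held at most 10 counts in a sample.

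Ctsc, which encodes cathepsin C, the activator of granzymes and other serine proteases of immune cells, rose 1.62-fold (135, 137, 107 and 159 against 281, 224, 164 and 204 CPM, adjusted p = 0.00328, edgeR). Its lowest knockdown sample, replicate 3, was close to control replicate 4. Ctse, an endosomal aspartic protease gene, rose 2.67-fold, from 6.19, 7.94, 6.99 and 18.7 CPM to 30.9, 27.2, 23.4 and 24.9 CPM (adjusted p = 0.00191, edgeR). Control replicate 4 alone was high among its controls, and without it the log2 fold change was 1.91 instead of 1.42. Ctsk, the main collagen-degrading cathepsin of osteoclasts, was near the limit of detection, with 15, 3, 17 and 18 counts in the controls and 58, 46, 29 and 55 counts in the knockdown samples. Its rise of 2.18-fold passed (adjusted p = 0.0349, edgeR), but the call was lost in 4 of the 8 fits that left out 1 sample: control replicate 1 (adjusted p = 0.0574) and knockdown replicates 1 (0.0947), 2 (0.0641) and 4 (0.0655). Ctsk and Ctss are neighbours on chromosome 3, with 17.4 kb between them. Ctsz, a carboxypeptidase gene, rose 1.22-fold (193, 188, 222 and 167 against 241, 238, 242 and 214 CPM, adjusted p = 0.0247, edgeR). The groups of Ctsz overlapped, since control replicate 3 was above knockdown replicate 4. That call was lost on leaving out control replicates 1, 2 or 4, or knockdown replicates 1, 2 or 3, 1 at a time (adjusted p of 0.0504 to 0.0661), so 6 of the 8 samples were each needed for it.

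In contrast, 4 protease genes fell. Ctsl, which encodes cathepsin L, an endopeptidase of lysosomal protein turnover, held 980, 994, 949 and 672 CPM under control virus and 458, 480, 578 and 519 CPM under knockdown, a fall of 1.77-fold (log2 -0.82 ± 0.13, SE, adjusted p = 0.000357, edgeR). Control replicate 4 was the lowest control and still above every knockdown sample. Ctsf, another papain-like protease gene, fell by 0.82 ± 0.12 (log2, SE), from 52.2, 40.6, 39.5 and 39.8 CPM to 22.1, 22.9, 29.1 and 23.6 CPM (adjusted p = 0.000166, edgeR). Under total-count scaling both genes still fell, by 0.25 each on the log2 scale (adjusted p = 0.047 for Ctsl and 0.0418 for Ctsf, edgeR). Thus among the 8 cysteine cathepsin genes 5 rose (62.5%, against 29.5% of all genes tested) and 3 fell (37.5%, against 27.8%). The groups did not overlap in 7 of these 8 genes (87.5%, against 52.1%).

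Ctsh, an aminopeptidase gene, fell by 0.23 ± 0.07 (log2, SE; 210, 217, 197 and 198 against 171, 167, 185 and 181 CPM; adjusted p = 0.0185, edgeR). Tpp1, which encodes the tripeptidyl peptidase missing in a form of neuronal ceroid lipofuscinosis, fell by 0.17 ± 0.07 (112, 108, 116 and 106 against 100, 99.7, 91.0 and 101 CPM; adjusted p = 0.0484, edgeR). Both rose under total-count scaling, by 0.34 and 0.40. The call of Ctsh was lost without control replicate 2 (adjusted p = 0.0585) or knockdown replicate 2 (0.0615). The call of Tpp1 held in 1 of the 8 fits that left out a sample, the one without control replicate 4, and was lost on leaving out any 1 of control replicates 1, 2 and 3 or any 1 knockdown sample (adjusted p of 0.0691 to 0.113). Ctsa, which encodes the serine carboxypeptidase that protects beta-galactosidase and neuraminidase, held 168, 174, 180 and 172 CPM against 193, 190, 201 and 178 CPM (log2 0.14 ± 0.07, SE, adjusted p = 0.111, edgeR). Its exons share 10.5% of their bases with Pltp on the opposite strand. Pltp held up to 3792 counts in a sample, against 3496 to 6964 for Ctsa. Smaller shares of exon bases overlapped genes on the opposite strand in Idua (3.35%, Slc26a1), Ppt1 (3.51%, Cap1) and Lamp1 (9.31%, Grtp1). Counts of Ctsa, Idua, Ppt1 and Lamp1 are uncertain if reads were not assigned by strand. The share of bases does not bound the share of counts. Slc26a1 held up to 2988 counts in a sample against at most 572 for Idua, and Cap1 up to 4820 against at most 2136 for Ppt1. Grtp1 held up to 448 counts, against 12667 to 23652 for Lamp1. Glb1 shares 5.49% of its exon bases with Tmppe on the same strand, so strand cannot separate reads in the shared bases. Tmppe held up to 121 counts in a sample, against 204 to 668 for Glb1, and its part in the Glb1 counts was not tested.

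Among the 11 carbohydrate-degrading enzymes, 5 rose (45.5%, against 29.5% of all genes tested), 1 fell (9.09%, against 27.8%) and 5 did not pass. Hexa, the alpha subunit of beta-hexosaminidase, which cuts GM2 ganglioside, held 53.3, 51.7, 55.9 and 58.7 CPM in controls, against 107, 106, 104 and 99.7 CPM after knockdown. The spread within each group was small, with SDs of 3.11 and 3.46 CPM, and the rise was 0.92 ± 0.07 on the log2 scale (SE, adjusted p = 1.94e-06, edgeR). Gla, alpha-galactosidase A, the enzyme deficient in Fabry disease, rose 2.85-fold from a low level, with 5.18, 4.25, 5.55 and 5.66 CPM against 14.3, 16.7, 11.8 and 16.1 CPM (adjusted p = 9.19e-06, edgeR). It lies on chromosome X at 134588149 to 134601125. The groups of Gla did not overlap, and knockdown replicate 3 was the lowest of the knockdown samples.

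Glb1, beta-galactosidase, rose 1.68-fold (11.2, 9.53, 10.5 and 12.1 against 20.2, 18.6, 16.8 and 17.1 CPM, adjusted p = 0.00014, edgeR). Smaller rises were seen in Man2b1, lysosomal alpha-mannosidase (155 ± 10.5 to 199.51 ± 11.3 CPM, SD, n = 4 each), and Gusb, beta-glucuronidase (46.4 ± 3.01 to 57.8 ± 3.77 CPM), with adjusted p of 0.00224 and 0.00511 by edgeR. Gaa, acid alpha-glucosidase, which degrades glycogen in lysosomes and is deficient in Pompe disease, went the other way. It held 150, 154, 152 and 138 CPM across controls and 89.0, 89.3, 102 and 91.2 CPM after knockdown, a fall of 0.68 ± 0.07 (log2, SE, adjusted p = 2.25e-05, edgeR). With total-count scaling the difference of Gaa, -0.11, did not pass (adjusted p = 0.146, edgeR).

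Of the enzymes that act on heparan sulfate, Naglu, Idua and Ids did not pass, while Gusb, above, rose (adjusted p = 0.862, 0.801, 0.873 and 0.00511 in this order, edgeR). Naglu, an N-acetylglucosaminidase gene, held 31.5, 35.1, 33.9 and 37.4 CPM against 36.3, 34.6, 34.3 and 31.2 CPM. Idua, alpha-L-iduronidase, held 13.3, 12.4, 15.2 and 15.4 against 14.3, 14.4, 14.3 and 14.7 CPM, and Ids, iduronate sulfatase, 8.78, 8.83, 7.20 and 9.27 against 10.5, 8.22, 6.80 and 7.79 CPM. Their log2 differences were -0.02 ± 0.08, 0.03 ± 0.10 and -0.03 ± 0.15 (SE), and the groups overlapped for all 3. Manba, beta-mannosidase, and Neu1, the neuraminidase that removes sialic acid, had means of 20.9 and 39.8 CPM under control virus and 24.4 and 44.2 CPM under knockdown, and did not pass either (adjusted p = 0.063 and 0.157, edgeR). Manba passed without control replicate 4 (adjusted p = 0.0362) or without knockdown replicate 3 (0.0214). Under total-count scaling all 5 passed as higher, by 0.54 to 0.79 on the log2 scale, close to the shift of the median gene.

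Of the 6 lipid hydrolases and activators, 5 rose (83.3%, against 29.5% of all genes tested) and 1 fell (16.7%, against 27.8%). The groups did not overlap for any of the 6, against 52.1% of all genes tested. Psap encodes prosaposin, the precursor of the saposins that present sphingolipids to their hydrolases, and had the highest control level of the 34 genes per length of merged exon. It held 803, 851, 843 and 924 CPM in controls, against 1746, 1633, 1528 and 1454 CPM after knockdown, a rise of 1.86-fold (adjusted p = 1.71e-05, edgeR). Asah1, acid ceramidase, rose 1.91-fold, from 33.7, 39.1, 36.1 and 39.6 CPM to 79.6, 76.3, 58.2 and 69.98 CPM (adjusted p = 2.61e-05, edgeR). Ppt1, a thioesterase that removes palmitate from proteins, rose 1.64-fold (34.3 ± 1.31 to 56.4 ± 6.65 CPM, SD, n = 4 each).

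Gm2a, the activator that lifts GM2 ganglioside to beta-hexosaminidase, rose 1.35-fold (112, 130, 107 and 154 against 167, 163, 185 and 166 CPM, adjusted p = 0.00652, edgeR). Both Hexa, which encodes the enzyme subunit, and Gm2a were therefore higher. Lipa, the acid lipase of cholesteryl esters and triglycerides, rose 1.21-fold (205, 211, 231 and 231 against 302, 258, 240 and 260 CPM, adjusted p = 0.0214, edgeR). That call was lost without control replicate 1 (adjusted p = 0.0687) or 2 (0.0639) or knockdown replicate 1 (0.066). Smpd1, acid sphingomyelinase, which yields the ceramide that acid ceramidase splits, fell by 0.42 ± 0.07 (log2, SE; 53.7, 59.7, 57.0 and 60.3 against 41.0, 40.6, 46.5 and 44.5 CPM; adjusted p = 0.000698, edgeR). Under total-count scaling Smpd1 was 0.14 higher and did not pass.

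The 4 membrane proteins differed most among themselves. Cd63, a tetraspanin of late endosomes, lysosomes and exosomes, had the largest fold change of the 34, with 2.88, 3.92, 3.91 and 6.12 CPM across controls and 31.5, 33.4, 26.1 and 26.5 CPM after knockdown. That is a rise of 6.96-fold (log2 2.80 ± 0.19, SE, adjusted p = 1.26e-06, edgeR), at percentile 98.6 of the log2 fold changes of all genes. The gene lies on chromosome 10 at 128900989 to 128912822, and its pseudogene Cd63-ps held 0 counts in the controls and 1 in the knockdown samples. Without control replicate 4, the highest control, the log2 fold change was 3.04.

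Lamp2, whose product is needed for fusion of autophagosomes and for chaperone-mediated autophagy, held 800, 770, 731 and 691 CPM under control virus and 412, 378, 402 and 433 CPM under knockdown. It fell by 0.88 ± 0.08 (log2, SE, adjusted p = 9.03e-06, edgeR), and by 0.31 under total-count scaling, where it still passed (adjusted p = 0.00355, edgeR). Lamp1, the related coat protein, held 641, 669, 651 and 682 CPM against 616, 631, 652 and 606 CPM. The groups of Lamp1 overlapped and the difference of -0.08 ± 0.07 did not pass (adjusted p = 0.39, edgeR). Mcoln1, the lysosomal calcium channel TRPML1, fell by 0.68 ± 0.08 (53.2, 48.2, 44.9 and 50.3 against 29.0, 30.1, 33.3 and 30.0 CPM, adjusted p = 3.5e-05, edgeR), and by 0.12 under total-count scaling, where it did not pass.

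**Figure D3:**
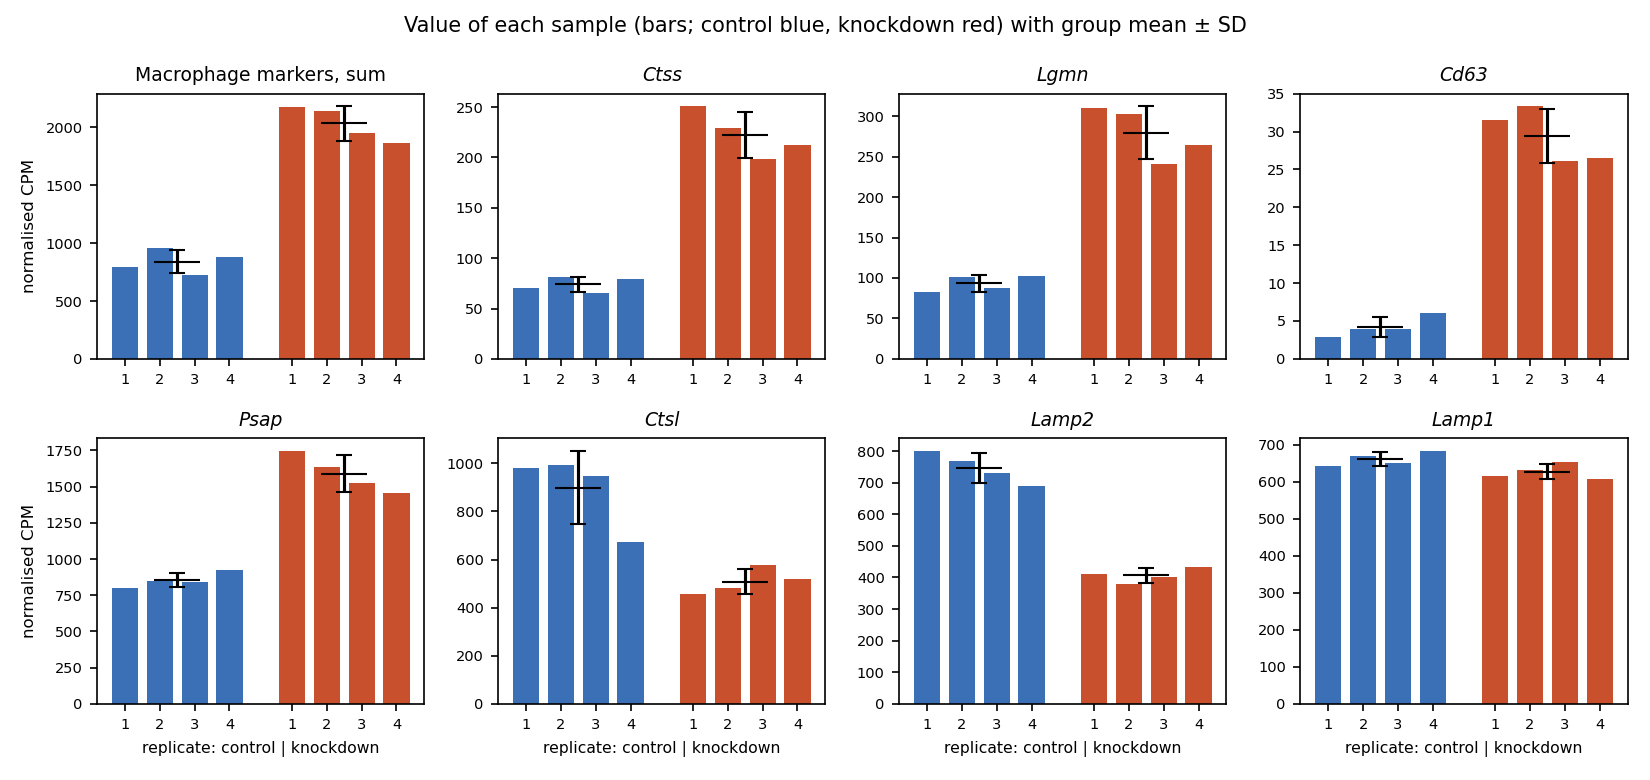
Normalised CPM of each sample (bars, axis from 0) for the sum of the macrophage markers and for 7 lysosomal genes, with the group mean ± SD in black. The macrophage sum, Ctss, Lgmn, Cd63 and Psap were higher in every knockdown sample, Ctsl and Lamp2 lower in every knockdown sample, and Lamp1 overlapped between groups.

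Levels were compared between genes per kilobase of merged exon, as TPM, which sums to the same total in each sample. In the controls Psap stood at 587 ± 73.6 TPM (SD, n = 4), Lamp1 at 465 ± 43.4, Ctsd at 365 ± 43.6 and Ctsl at 258 ± 33.99, while Cd63 (2.18 ± 0.853) and Ctsk (0.795 ± 0.432) were the lowest. Neighbours in this order, such as Ctsl and Ctsz (249.9 ± 25.7), lay within their SDs of each other. With the length column of the authors' deposited table the place of Lamp2 moved from rank 7 to rank 1. Cd63 moved from rank 33 to rank 31 (5.79 TPM), above Gla (2.35) and Ids (2.48). The levels of Lamp2 and Cd63 thus depend on which isoforms are counted in the length. By merged exon in the knockdown samples, Ctsd took rank 2 in place of Lamp1, Cd63 moved from rank 33 to 26, and Ctsl from rank 4 to 8.

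The authors' deposited table marks 6 of the 34 as significant, namely Cd63, Ctss, Lgmn, Gla, Ctse and Ctsk, all up. Of all 55536 genes listed there, 3756 (6.76%) are marked. That base includes genes that did not pass the filter on low counts here, while all 34 passed it. The 6.76% is therefore not a like base for the 6 of 34. Among the 34, marked genes had fold ratios there from 2.03 (Ctsk) upward, and the highest not marked was Asah1 at 1.91. By the adjusted p of the deposited table under 0.05, 19 of the 34 were up and 8 down.

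Other lysosomal genes were examined in lists apart from the 34. Of 75 such genes, 35 rose (46.7%, against 29.5% of all genes tested) and 12 fell (16.0%, against 27.8%), with a median log2 fold change of 0.15. Among 26 other lumenal enzymes and proteins 13 rose and 1 fell. The sterol-binding protein gene Npc2 went from 64.5 ± 1.17 to 118 ± 5.08 CPM (SD, n = 4), while carboxypeptidase Prcp went from 7.81 to 21.2 CPM and the hyaluronidase gene Hyal1 fell from 102 to 45.7 CPM. Among 18 other membrane proteins 7 rose and 8 fell. The calcium channel genes Tpcn2 and Tpcn1 moved apart, with log2 fold changes of 1.34 ± 0.14 and -0.71 ± 0.10 (SE), the orphan receptor-like gene Gpr137b rose by 1.45 and the sialic acid exporter gene Slc17a5 fell by 0.74. The falls of Slc17a5 and Tpcn1 were 0.17 and 0.15 under total-count scaling, and 0 of these 18 genes passed as lower there (edgeR).

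The V-ATPase, the proton pump that acidifies the lumen, had 8 of 18 genes higher (44.4%) and 2 lower (11.1%). Over all genes tested the shares were 29.5% and 27.8%. Atp6v0e rose by 0.82 ± 0.07 (log2, SE) and Tcirg1, the a3 subunit typical of osteoclasts and macrophages, by 0.68 ± 0.08. The subunit genes Atp6v0a1 and Atp6v0a2 fell by 0.46 and 0.27, and were 0.11 and 0.30 higher under total-count scaling. Of 13 genes that tag and deliver the enzymes, 7 rose (53.8%) and 1 fell (7.69%), beside the same shares of all genes. Igf2r, the large mannose 6-phosphate receptor, rose from 67.0 ± 6.21 to 124 ± 15.6 CPM (SD, n = 4), Cln6 rose by 1.30 ± 0.13 (log2, SE), and Gnptg, a subunit of the enzyme that makes the tag, fell by 0.47 but was 0.10 higher under total-count scaling.

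Of 4 endogenous inhibitors of cysteine cathepsins, 3 passed the filter and all 3 rose. The other, Cst6, did not pass it. Cstb, the cytosolic cystatin B, went from 21.3 ± 2.79 to 98.3 ± 7.90 CPM (SD, n = 4 each), and Cst7, cystatin F of immune cells, from 0.214 to 1.06 CPM. Cst7 was near the limit of detection, with 3, 5, 4 and 6 counts in the controls and 38, 48, 23 and 33 in the knockdown samples. Of the 4 factors that bind the CLEAR element, Tfec, expressed in macrophages, rose by 1.01 ± 0.20 (log2, SE) and Tfe3 by 0.31 ± 0.08. Tfeb held 9.65 ± 1.52 CPM in controls, against 9.89 ± 1.22 CPM after knockdown, and Mitf 5.26 and 5.34 CPM, and neither passed (adjusted p = 0.862 and 0.939, edgeR).

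**Figure D4:**
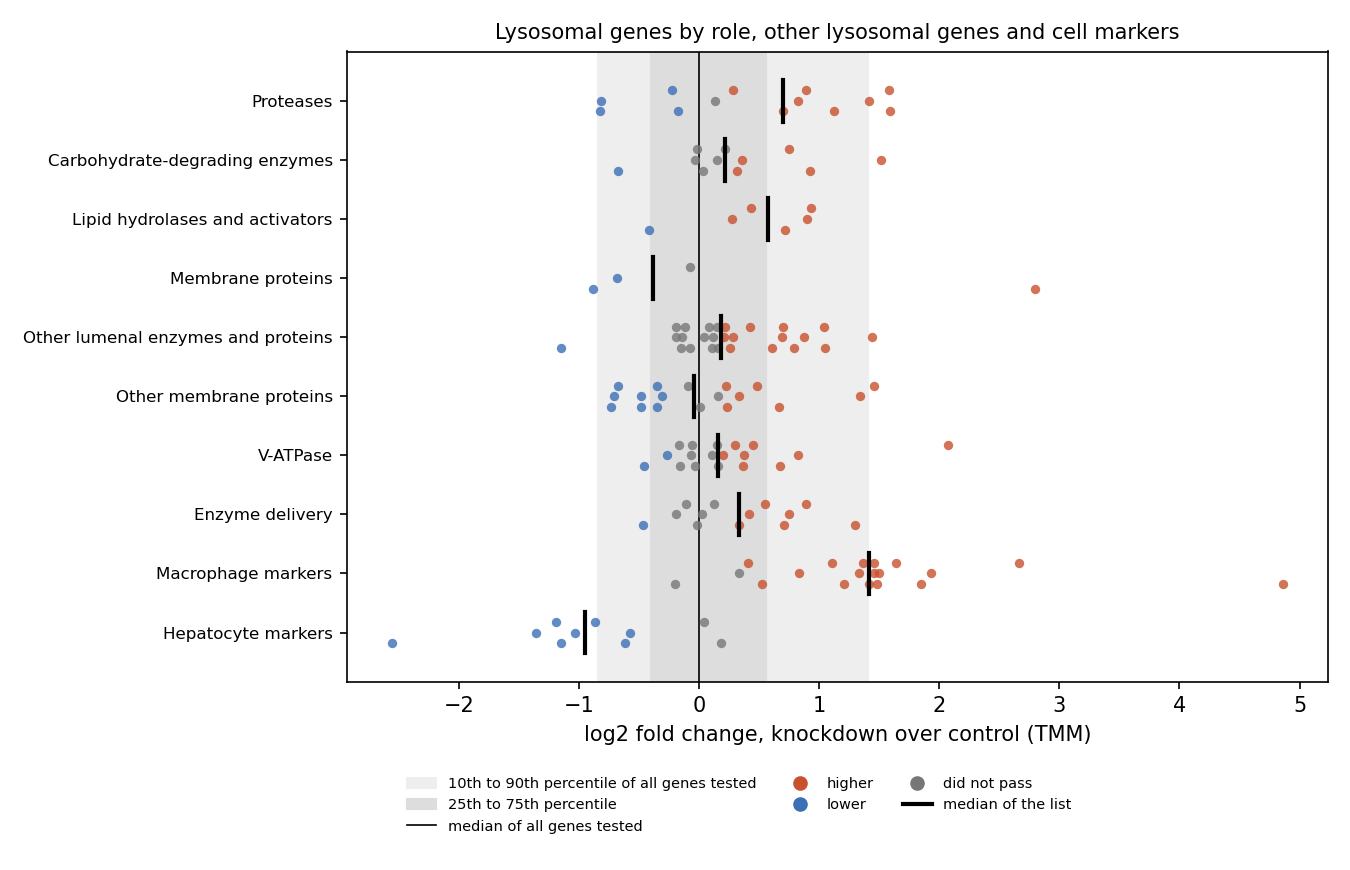
Log2 fold change (TMM) of single genes by list, red for higher, blue for lower and grey for genes that did not pass, with black bars for list medians and grey bands for the middle of all genes tested. The lumenal lists have medians above 0, membrane proteins lie on both sides of 0, macrophage markers lie mostly above 1 and hepatocyte markers mostly below 0.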

How the data were processed

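Liver RNA of 8 mice, 4 per group, was sequenced after removal of ribosomal RNA, per the labels' protocols. The deposited values are estimated counts per gene, and the authors' table also holds a fold ratio, log2 fold change and p-value for its own comparison, per the file headers. The submitters' processing notes name fastp 0.19.5, Bowtie2 2.2.9, GATK 3.8, SAMtools 1.9 and the build mm10, with no roles. The labels do not state whether counting used strand.

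Estimated counts were rounded to whole numbers, since 10.9% of the deposited values were not whole. The 645 assembled loci without a gene identifier (0.676 to 1.08% of counts) were left out. edgeR 4.0.16 in R 4.3.3 was run with filterByExpr, TMM factors and the quasi-likelihood test on all 8 samples, with Benjamini-Hochberg adjustment over 15375 genes, and was tested on simulated data. CPM used TMM-scaled totals, and TPM used merged exons of GENCODE release 21. The labels do not say that replicate numbers pair animals, so the main fit was unpaired. Its p-values rest on the spread between samples within each group of 4. Same-numbered samples did not deviate together. Alternatives included DESeq2 1.42.0, limma 3.58.1, other scalings and filters, a replicate block and leaving out each sample.

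The 34 genes and all other lists were chosen with earlier results of these data known. All 34 are accounted for, and from each pathway list up to 2 genes per direction with the smallest p were named, with at most 3 markers per cell type.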

Additional observations from a re-analysis of the deposited data

Results flagged for a closer look

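In 6 of the 68 groups of 4 samples examined, 1 sample stood far from the other 3 by Dixon's criterion, which chance meets in about 1 of 20 groups. Among controls these were Ctse in replicate 4 (18.7 CPM, next 7.94), Ctsf in replicate 1 (52.2 CPM, next 40.6) and Ctsl in replicate 4 (672 CPM, next 949). Among knockdown samples they were Ctsz in replicate 4 (214 CPM, next 238), Tpp1 in replicate 3 (91.0 CPM, next 99.7) and Gaa in replicate 3 (102 CPM, next 91.2). Control replicate 4 also held the least Eif4ebp3 of the controls, and the part of this in the values was not tested.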

How the results depend on the processing

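Of the 27 genes called among the 34, 12 were called under each of the 20 alternatives and 24 kept their direction in each. The minimum fold of 1.5 asks a stricter question and by itself removed 15 calls. Ctsc, Ctsl, Glb1, Gm2a, Gusb, Man2b1 and Ppt1 lost the call under that alternative only. Over all values of the 34 genes under these alternatives, 604 kept direction and side of the threshold, 50 lost the call, 9 gained it and 17 changed sign. Of those 17, 6 involved a call, all under total-count scaling, where Ctsh was 0.34, Ids 0.54, Lamp1 0.49, Naglu 0.55, Smpd1 0.14 and Tpp1 0.40 higher on the log2 scale. The other 11 were small differences of Naglu, Ids and Idua that passed in neither fit. Naglu was 0.0572 with upper-quartile factors, 0.0076 with no filter and 0.0624 with the C-coded samples alone, and Ids was 0.0445 with upper-quartile factors and 0.0419 with the C-coded samples alone. With 1 sample left out, Naglu ranged from -0.0631 to 0.0232, Ids from -0.1652 to 0.0531 and Idua from -0.029 to 0.0744. Total-count scaling gave 9823 genes higher and 1189 lower over all genes, 28 and 3 among the 34, and 65 and 1 among the 75 other lysosomal genes. A minimum fold of 1.5 gave 2399 and 1322, 10 and 2, and 10 and 1. With 1 sample left out, the counts were 4091 to 4811 higher and 3764 to 4492 lower over all genes, 16 to 19 and 6 to 8 among the 34, and 29 to 32 and 11 to 15 among the other lysosomal genes. With the replicate block the 34 gave 18 higher and 6 lower, all genes 4414 and 4067, and the other lysosomal genes 30 and 11. The calls of Ctsh, Lipa and Tpp1 were lost with the block. Correlations of same-numbered samples were -0.128, -0.038, 0.058 and 0.148. DESeq2 and limma each gave 19 and 8. Depth limits Ctsk, with 3 to 58 counts per sample.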

Other observations

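Among the 7 of the 34 genes that did not pass, the coefficient of variation was lower in the knockdown samples than in the controls for Idua (10.3% in the controls, 1.24% in the knockdown samples) and Naglu (7.12% and 6.15%). It was higher for Ids (10.6% and 18.9%), Neu1 (3.67% and 10.7%), Ctsa (2.78% and 4.82%), Lamp1 (2.80% and 3.22%) and Manba (8.08% and 8.21%), and these differences were not tested. Among the macrophage markers, Gpnmb, a glycoprotein of lysosome-rich macrophages, went from 1.70 ± 0.425 to 49.8 ± 11.2 CPM (SD, n = 4 each), and Trem2, a lipid-sensing receptor, rose by 2.66 ± 0.16 (log2, SE). Gpnmb and Trem2 were chosen here after their values were seen.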
